A study of Mus musculus with 8 samples.

Results

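The response to doxycycline inside the shDis3l2 line was measured in 4 of the study's 8 RNA-seq libraries. The members were chosen by their labels: replicates 1, 2 and 3 of shDis3l2 cells grown with doxycycline, and the 1 shDis3l2 library grown without it. All were made from RAW264.7 cells, a macrophage-like line of mouse origin, which expressed a short hairpin RNA against Dis3l2 (shDis3l2). The comparison line carried a non-silencing hairpin (shNS) and gave 3 further libraries with doxycycline and 1 without. Doxycycline was used at 1 µg/mL, renewed each day, and RNA was extracted after 4 days, per the treatment protocol; the titles of the 3 treated shDis3l2 libraries carry no day of their own. The labels name neither the vector nor its promoter, and do not say whether a line is a clone or a pool, or whether replicates were separate cultures. The p-values therefore measure only the spread between these libraries, which may be technical. The untreated side is 1 library throughout, so its own variation was not measured, and within the line an effect of the drug and an effect of the hairpin cannot be told apart.

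DIS3L2 is an exoribonuclease of the cytoplasm that degrades RNAs from the 3′ end, with a preference for RNAs carrying an added uridine tail, many of them structured noncoding RNAs. Macrophages sense RNA and DNA that is foreign or out of place through receptors such as RIG-I, MDA5 and the Toll-like receptors, which act through adaptors and IRF3 or IRF7 to induce type I interferon. Interferon signals through a transcription factor complex that binds the interferon-stimulated response element (ISRE) in the promoters of interferon-stimulated genes such as Cxcl10, Irf7 and Siglec1.

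The shDis3l2 libraries held 45557804, 33002748 and 32274120 counts in replicates 1, 2 and 3 with doxycycline, and 37996224 without. Levels are given as CPM, the counts of a gene scaled to a fixed library total, after TMM scaling over all 8 libraries, and 15250 genes passed the filter on low counts. Replicate 1 stood apart from the other treated libraries. It had the largest total, and mitochondrial genes took 3.89% of its counts, against 2.65 to 2.95% in the other 3 shDis3l2 libraries. The median absolute log2 difference over genes was 0.294 between replicates 1 and 2, 0.318 between replicates 1 and 3, and 0.110 between replicates 2 and 3. Against the untreated library it was 0.383 for replicate 1, 0.192 for replicate 2 and 0.199 for replicate 3, so replicate 2 lay closer to the untreated library than to replicate 1. No 2 treated libraries agreed within counting noise. The labelled cell type was checked on its markers. Csf1r, the receptor for macrophage colony-stimulating factor, stood at 2236, 2229.7 and 2168 CPM with doxycycline and 2411 CPM without, and 36 to 38 of 45 macrophage markers stood at 1 CPM or more in these libraries. Adgre1, another macrophage marker, was low, at 10.7, 7.09 and 25.9 CPM against 5.01 CPM, where untreated shNS cells had 78.8 CPM. Cd68, Itgam and Lyz2 also lay above the untreated value in every treated library, and Spi1 lay on both sides of it. Of 33 markers of other blood and stromal cells, 26 to 28 were at 0 in each library, among them Cd3e, Epcam and Ly6g.

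Dis3l2 (ENSMUSG00000053333; GRCm38 chr1:86703808-87050095, plus strand), the gene targeted by the hairpin, stood at 12.004, 13.5 and 14.9 CPM in replicates 1, 2 and 3 with doxycycline, from 525, 464 and 505 counts, and at 28.6 CPM in the untreated library, from 1126 counts. All 3 treated libraries lay below the untreated one, with a mean of 13.5 ± 1.46 CPM (SD, n = 3). The log2 fold change was −1.09 (SE 0.19), and edgeR's quasi-likelihood test within the line gave an adjusted p of 0.299. An exact permutation test of 3 libraries against 1 cannot go below 0.25 one-sided or 0.5 two-sided, so it cannot place any gene past 0.05. In the shNS line Dis3l2 stood at 33.03, 28.7 and 22.02 CPM with doxycycline and 29.7 CPM without, and these values overlapped. In bulk RNA, fewer cells carrying a transcript and less of it per cell cannot be told apart, here and for every gene below.

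Only 1 of 15250 genes passed the within-line test at an adjusted p of 0.05: Angptl4 (ENSMUSG00000002289; GRCm38 chr17:33773750-33781830, minus strand), which encodes a secreted inhibitor of lipoprotein lipase. It stood at 111, 92.5 and 105 CPM with doxycycline and 4.7 CPM without. The 3 treated libraries were close to each other, 103 ± 9.28 CPM (SD, n = 3), and far from the untreated one. The gene rose by 4.45 on the log2 scale (SE 0.23; edgeR quasi-likelihood, adjusted p = 0.0344). The call was lost with an adjusted p of 0.135 in limma-voom, and with an adjusted p of 1 where the spread was taken from all 8 libraries. In the shNS line Angptl4 stood at 16.5, 6.53 and 38.5 CPM with doxycycline and 5.52 CPM without, so all 3 treated libraries lay above the untreated one there too, over a wider range. The difference between the lines' log2 changes was 2.56 (edgeR interaction test, adjusted p = 1).

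Genes past the test were thus 0.00656% of those tested in the higher direction and 0% in the lower direction, where no gene passed in edgeR's within-line test. DESeq2 called 174 higher and 50 lower, and limma-voom called 0 in either direction. At an unadjusted p under 0.05, edgeR gave 601 genes higher (3.94%) and 360 lower (2.36%). The count depended on which libraries entered: without replicate 1, with 1 residual degree of freedom left, 513 genes were higher and 389 lower, against 124 and 41 without replicate 2 and 131 and 65 without replicate 3. The genes below are therefore described by their values in each library and by whether all 3 treated values lay beyond the untreated one. By that rule 4491 genes (29.4%) lay above and 4495 (29.5%) below. At a distance of at least 2-fold between the untreated library and the nearest treated one, on the log2(CPM) scale with a prior count of 2, 197 genes (1.29%) lay above and 133 (0.872%) below. The counts given for each list below are to be read beside these shares of all genes, including those at an unadjusted p. The shares hold for all 3 treated libraries against 1, and not for counts with a library left out or for single libraries.

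**Figure D1:**
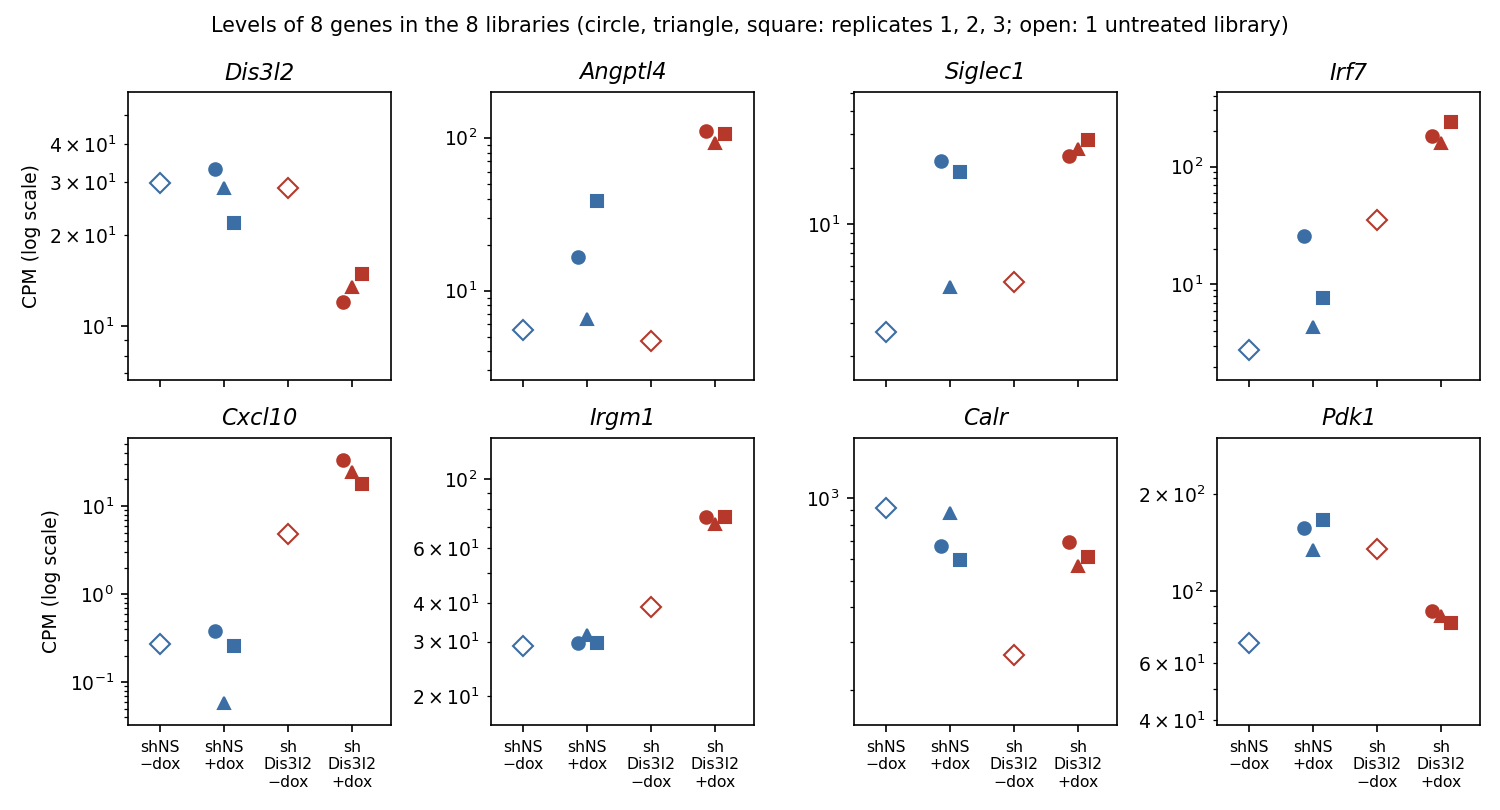
Levels of 8 genes in all 8 libraries, as TMM-scaled CPM on a log axis. Filled symbols are the doxycycline libraries (circle, triangle and square for replicates 1, 2 and 3), open diamonds the single untreated library of each line, blue for shNS and red for shDis3l2. In the shDis3l2 line the treated values of Angptl4 (92.5 to 111 CPM) lie far above the untreated 4.70 CPM, and those of Dis3l2 (at most 14.9 CPM) below 28.6 CPM.

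The interferon-stimulated genes made the largest group that lay above the untreated library. Of 98 genes listed, 90 passed the filter; Ccl12, Ccl7, Cxcl9, Ifi205, Ly6a, Slfn1 and Tgtp1 did not, and 1 name had no entry in the annotation. All 3 treated values lay above the untreated value for 88 of the 90 and below it for 0, against 29.4% and 29.5% of all genes tested. For 44 the distance was at least 2-fold, against 1.29% of all genes. The members' log2 fold changes had a median of 1.22, with quartiles of 0.88 and 1.75, where the median of all genes was 0.00. No member passed the adjusted threshold in edgeR's within-line test, and 79 were higher at an unadjusted p under 0.05. DESeq2 called 62 members and limma-voom 0, edgeR with no low-count filter called 8, and edgeR without replicate 1, 2 or 3 called 77, 40 and 44.

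Cxcl10 (ENSMUSG00000034855; GRCm38 chr5:92346638-92348889, minus strand), a chemokine that attracts activated T cells, stood at 33.1, 24.4 and 17.6 CPM with doxycycline and 4.75 CPM without. Every treated library was above the untreated one, at 24.99 ± 7.77 CPM (SD, n = 3), with replicate 1 the highest. Its log2 fold change was 2.39 (SE 0.42; adjusted p = 0.301 in edgeR). Siglec1 (ENSMUSG00000027322; GRCm38 chr2:131069220-131086765, minus strand), a sialic acid receptor of macrophages, stood at 23.1, 25.04 and 28.01 CPM against 4.96 CPM. Its treated values, 25.4 ± 2.49 CPM (SD, n = 3), spanned a narrow range, with a log2 fold change of 2.35 (SE 0.22; adjusted p = 0.238 in edgeR). Irf7 (ENSMUSG00000025498; GRCm38 chr7:141262706-141266481, minus strand), the transcription factor that amplifies type I interferon production, stood at 182, 159 and 239 CPM against 34.9 CPM. Its treated mean was 193 ± 40.8 CPM (SD, n = 3), replicate 3 was the highest, and the log2 fold change was 2.47 (SE 0.30; adjusted p = 0.253 in edgeR).

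The letters of the ISRE could be looked for in the promoters of 71 of the 90 members, in RefSeq's windows of 300 bases (250 before and 50 after the start of the gene, build GRCm38.p6), which held 9864 of the tested symbols. GAAANNGAAA, read on both strands with overlapping matches counted, was present in 36 of the 71 windows (50.7%) and in 390 of all 9864 (3.95%). Among the 36 members with a match, 35 had all 3 treated values above the untreated one and 22 were at least 2-fold above it, with a median log2 fold change of 1.51; the median of the members without a match was 1.16. Over all 390 genes with a match, on the list or not, 176 had all 3 treated values above and 32 were at least 2-fold above, with a median of 0.13. In the 91 windows of genes at least 2-fold above that were not on the list, 10 held the letters (11.0%), and in 68 windows of genes at least 2-fold below, 2 did (2.94%). The 5 promoters below are shown because their genes carry the pattern of this list and differ in kind: a chemokine (Cxcl10), a ubiquitin-like modifier (Isg15), a pair of immunity-related GTPases (Irgm1 and Igtp) and a member of the Ifit family (Ifit3). Each run is the 250 bases before the start of the gene, on the gene's strand, with the matches in capitals. The match begins 213 bases before the start in Cxcl10, 34 in Igtp, and 30 and 24 in Irgm1; Isg15 has 3 overlapping matches, at 78, 72 and 66 bases; in Ifit3 the matches at 156 and 122 bases lie on the opposite strand, as the reverse complement. A match is a description of the letters only.
Cxcl10 (chr5:92348890-92349139, minus strand): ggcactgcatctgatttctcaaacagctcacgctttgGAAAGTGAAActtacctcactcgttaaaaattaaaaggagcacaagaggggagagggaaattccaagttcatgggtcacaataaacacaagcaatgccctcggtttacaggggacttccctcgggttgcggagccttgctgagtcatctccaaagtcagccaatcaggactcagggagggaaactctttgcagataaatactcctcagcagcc
Isg15 (chr4:156200819-156201068, minus strand): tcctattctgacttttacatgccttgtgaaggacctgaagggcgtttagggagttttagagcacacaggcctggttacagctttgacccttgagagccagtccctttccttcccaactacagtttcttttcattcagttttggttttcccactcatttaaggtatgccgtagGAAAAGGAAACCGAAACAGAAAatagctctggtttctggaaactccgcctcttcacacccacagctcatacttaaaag
Irgm1 (chr11:48871421-48871670, minus strand): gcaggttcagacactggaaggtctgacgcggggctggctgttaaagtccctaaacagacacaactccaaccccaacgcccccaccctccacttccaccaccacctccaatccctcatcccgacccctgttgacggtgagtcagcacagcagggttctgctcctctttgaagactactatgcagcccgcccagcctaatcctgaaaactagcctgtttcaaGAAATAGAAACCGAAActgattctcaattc
Igtp (chr11:58199306-58199555, plus strand): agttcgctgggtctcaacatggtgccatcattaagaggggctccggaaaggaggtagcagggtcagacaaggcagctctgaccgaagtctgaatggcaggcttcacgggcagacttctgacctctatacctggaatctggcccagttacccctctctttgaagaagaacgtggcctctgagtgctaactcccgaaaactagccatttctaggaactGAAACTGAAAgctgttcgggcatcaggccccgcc
Ifit3 (chr19:34583279-34583528, plus strand): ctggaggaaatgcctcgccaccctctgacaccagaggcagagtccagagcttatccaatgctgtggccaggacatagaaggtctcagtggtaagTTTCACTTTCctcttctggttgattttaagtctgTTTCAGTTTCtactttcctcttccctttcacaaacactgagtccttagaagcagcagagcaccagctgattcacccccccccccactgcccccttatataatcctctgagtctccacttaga

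The 5 genes whose promoters are printed were all higher in every treated library. Isg15 stood at 17.9, 11.2 and 12.4 CPM against 2.72 CPM untreated, a log2 fold change of 2.35. Irgm1, which acts on vacuoles that hold pathogens, stood at 75.3, 71.6 and 75.6 CPM against 38.6 CPM. Its treated values were close together, and its log2 fold change of 0.94 (SE 0.15; adjusted p = 0.292 in edgeR) was below the list's median. Igtp stood at 26.9, 19.2 and 20.3 CPM against 7.75 CPM (log2 fold change 1.51), and Ifit3 at 6.77, 10.04 and 9.69 CPM against 2.19 CPM (log2 fold change 2.01).

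Within the list the families lay at different distances from the untreated library. All 7 members of the Oas and Oasl family of RNA-activated synthetases and their relatives lay above the untreated library, 6 of them by at least 2-fold, with a median log2 fold change of 1.40. Oasl2 stood at 27.8, 21.1 and 25.8 CPM against 5.03 CPM (log2 fold change 2.31), and Oasl1, which restrains translation of Irf7, at 98.2, 84.9 and 91.6 CPM against 34.6 CPM (log2 fold change 1.40). Of 5 Ifit genes, 4 lay above, with a median of 1.75. All 5 Schlafen genes (median 0.97) and all 3 Parp genes of the list (median 0.86) lay above at smaller distances. The signalling factors Stat2 and Irf9 also lay above. Stat2 stood at 34.5, 33.03 and 37.9 CPM against 18.1 CPM (0.96 on the log2 scale), and Irf9 at 73.4, 62.2 and 63.8 CPM against 37.3 CPM (0.83 on the log2 scale). Stat2, Irf9, Isg15 and Ifit3 were chosen for mention after their values were seen.

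The order among the treated libraries varied by gene. Of the 90 members, 47 were highest in replicate 1, 13 in replicate 2 and 30 in replicate 3, and 89 lay above the untreated value in each of the 3 replicates taken singly. The share of all genes above in a single library was not counted. The mean over members of the log2 difference to the untreated library was 1.40, 1.26 and 1.36 in replicates 1, 2 and 3. The group's shift was therefore of like size in replicate 1, which stood apart over all genes, and in replicates 2 and 3. These shifts share the same untreated library, so a deviation of that library would enter each of them alike. The list's median stayed between 1.20 and 1.23 when any 1 treated library was left out.

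Immune GTPases and antigen presentation genes, of which 40 were tested, lay above the untreated library in 34 cases and below in 1, with 10 at least 2-fold above, 25 higher at an unadjusted p under 0.05 and a median log2 fold change of 0.96. Some of these are also interferon-stimulated genes, since 45 genes stood on more than 1 list. The 9 guanylate-binding proteins, GTPases that attack the membranes of intracellular pathogens, all lay above, 7 of them by at least 2-fold. Gbp7 stood at 6.13, 7.38 and 9.87 CPM against 1.93 CPM (log2 fold change 2.01). Gbp4, Gbp6 and Gbp8 had 0 counts in the untreated library and at most 0.443 CPM in a treated one, so no fold is given for them. With these 3 held at a floor of 3 counts in the untreated library, the median of the family was 1.88 and that of the list 0.95. All 6 immunity-related GTPases lay above (median 1.35).

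The genes that cut and carry peptides for class I molecules lay above by like amounts. All 5 subunits of the immunoproteasome and its PA28 activator lay above the untreated library, with log2 fold changes of 0.61 to 1.08 and a median of 0.97. Psmb8 stood at 87.1, 63.4 and 71.98 CPM against 37.8 CPM, and Psmb9 at 18.6, 13.9 and 16.3 CPM against 7.7 CPM. All 4 genes of the peptide transporter and tapasin lay above, with log2 fold changes of 0.66 to 0.96, among them Tap1 at 45.9, 32.1 and 32.4 CPM against 18.9 CPM. Of 10 class I heavy chains and B2m, 8 lay above with a smaller median of 0.40. The class II chains H2-Aa, H2-Ab1 and H2-Eb1 stood at 0.0254, 0.407 and 0.0508 CPM in the untreated library and at no more than 1.74 CPM in a treated one, where untreated shNS cells had 68.5, 61.1 and 107 CPM. Their regulator Ciita stood at 0.343, 0.175 and 0.266 CPM against 0.432 CPM, and the invariant chain Cd74, which was abundant, at 698, 500.1 and 545 CPM against 537 CPM. Psmb8, Psmb9, Tap1, Gbp7 and the class II genes were chosen after their values were seen.

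Among 45 nucleic acid sensors and their adaptors, 34 lay above the untreated library and 5 below, 10 of them at least 2-fold above, and 20 were higher at an unadjusted p under 0.05. The median log2 fold change was 0.39. The sensors of double-stranded RNA lay above: Ddx58, which encodes RIG-I, stood at 149, 110.3 and 129 CPM against 40.9 CPM (log2 fold change 1.66). Ifih1, which encodes MDA5, stood at 48.8, 46.3 and 51.2 CPM against 21.8 CPM (log2 fold change 1.16), and Eif2ak2, which encodes PKR, at 119.7, 103 and 115 CPM against 64.6 CPM (log2 fold change 0.80). Zbp1, a sensor of left-handed nucleic acid, stood at 4.55, 4.67 and 6.68 CPM against 0.89 CPM (log2 fold change 2.57). Values differed among the adaptors and kinases. Ikbke, a kinase that activates IRF3 and IRF7, stood at 47.3, 32.6 and 38.4 CPM against 16.9 CPM (log2 fold change 1.22). Mavs, the adaptor of RIG-I and MDA5, stood at 42.4, 37.4 and 38.6 CPM against 30.1 CPM. Irf3 stood at 51.2, 38.7 and 38.8 CPM against 33.6 CPM, and Tbk1, whose treated values lay on both sides, at 54.5, 59.9 and 69.5 CPM against 56.1 CPM. Tmem173, which encodes STING, was lower in every treated library, at 43.6, 48.6 and 46.6 CPM against 49.9 CPM, and so was Tlr7, at 184, 170.0 and 178 CPM against 213 CPM (log2 fold change -0.27). Apart from Irf7 and Oasl1, the sensors and adaptors were chosen after their values were seen.

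The interferon genes themselves gave almost no counts. Ifnb1 stood at 0.0508 CPM in the untreated library and at 0.0229, 0 and 0 CPM in replicates 1, 2 and 3, and neither it nor Ifna1, Ifna2, Ifna4 and Ifna5 passed the filter. Of 17 receptors, kinases and feedback genes tested, 6 lay above the untreated library and 3 below, with a median log2 fold change of 0.04. Usp18, a protease that removes ISG15 and dampens the type I receptor, was the exception in size, at 76.02, 55.01 and 53.7 CPM against 21.3 CPM (log2 fold change 1.53). Socs3, a feedback inhibitor of cytokine signalling, stood at 22.7, 21.9 and 19.3 CPM against 14.2 CPM (log2 fold change 0.59).

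Of 47 NF-κB targets and inflammatory cytokines, 24 lay above and 6 below, with a median log2 fold change of 0.31 (0.29 with Nos2, at 0 in the untreated library, held at the floor), 3 higher and 2 lower at an unadjusted p under 0.05. The replicates differed: the mean log2 difference to the untreated library was 0.60 in replicate 1, 0.01 in replicate 2 and 0.27 in replicate 3. Tnf stood at 144, 49.6 and 44.03 CPM against 67.2 CPM, so replicate 1 lay above the untreated library and replicates 2 and 3 below it. Without replicate 1 the number of members below the untreated value was 17 of 47, where 6095 of all 15250 genes lay below. The list was therefore not set apart by that count. Cd40, the co-stimulatory receptor, stood at 12.99, 10.1 and 8.98 CPM against 3.18 CPM (log2 fold change 1.75) and lay above in all 3. Ptgs2, which encodes the prostaglandin-forming cyclooxygenase COX-2, lay below in all 3, at 2.65, 2.92 and 4.7 CPM against 11.01 CPM (log2 fold change -1.69; adjusted p = 0.392 in edgeR). Tnf was chosen after its values were seen.

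**Figure D2:**
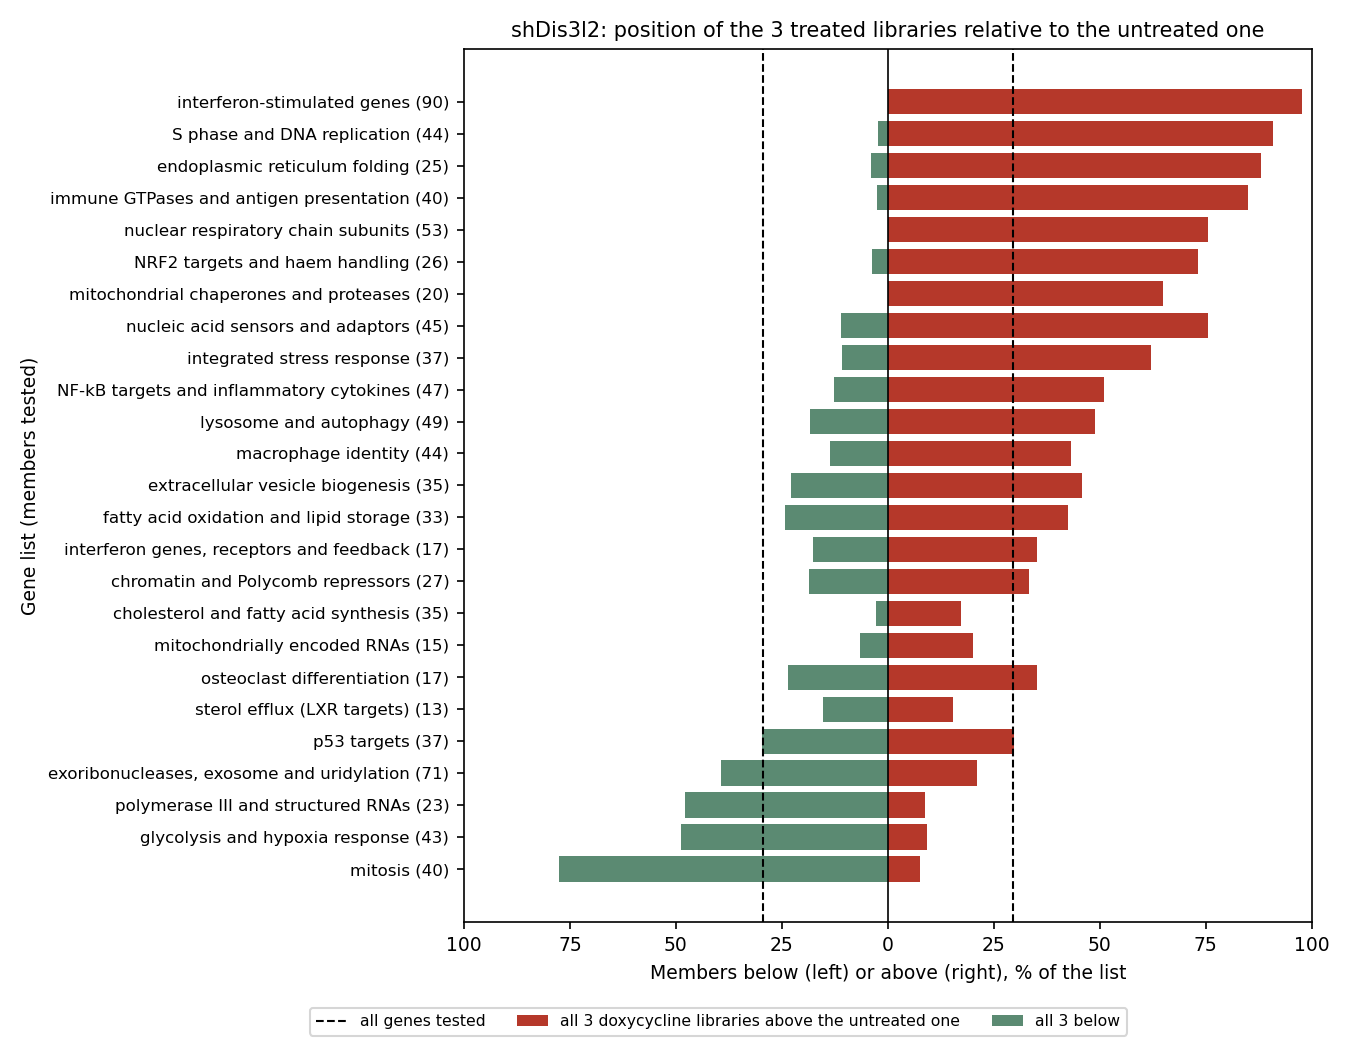
Share of each gene list's tested members (25 lists with at least 13) with all 3 doxycycline values above (red, right) or below (green, left) the untreated shDis3l2 value, in percent. Dashed lines mark the shares over all genes tested, 29.4% above and 29.5% below; the interferon-stimulated genes have the bar with 88 of 90 members above, and the mitosis list has 31 of 40 below.

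Genes of protein folding in the endoplasmic reticulum formed another group above the untreated library. Of 25 tested, 22 lay above and 1 below, 3 at least 2-fold above and 14 higher at an unadjusted p under 0.05, with a median log2 fold change of 0.69. Calr (GRCm38 chr8:84841850-84846934, minus strand), the calcium-binding chaperone calreticulin, stood at 694, 567 and 608 CPM against 269 CPM. All 3 treated values exceeded the untreated one by at least 2-fold, and the log2 fold change was 1.21 (SE 0.22; adjusted p = 0.301 in edgeR). Pdia4, a disulfide isomerase, stood at 127, 110.2 and 109.6 CPM against 55.9 CPM (log2 fold change 1.05; adjusted p = 0.297 in edgeR). Hspa5, the chaperone BiP, stood at 1110.4, 774 and 832 CPM against 423 CPM (log2 fold change 1.10). P4hb, another disulfide isomerase, was the 1 member below, at 507, 519 and 583 CPM against 698 CPM. The mean log2 difference over the list was 0.95 in replicate 1, 0.54 in replicate 2 and 0.56 in replicate 3. The untreated shDis3l2 library was itself low for this list: 1 of the 25 genes was higher in it than in untreated shNS. Calr stood at 918 CPM in untreated shNS, above all 3 treated shDis3l2 values. The part of this low starting level in the shifts was not tested.

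The endoplasmic reticulum stress element (ERSE, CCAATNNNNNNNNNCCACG, both strands, overlapping matches counted) was in 8 of the 21 windows found for this list (38.1%) and in 14 of all 9864 (0.142%). All 8 of these genes had their treated values above the untreated one, as did 22 of all 25 members tested. Over all 14 genes with the element, on the list or not, 9 did. The windows of Calr and Hspa5 are shown because both hold the element and both genes lay above the untreated library in every treated one; Hspa5 was chosen after its values were seen. The 250 bases before each start are given on the gene's strand, with the match in capitals, 162 bases before the start in Calr, on the opposite strand, and 65 bases before it in Hspa5.
Calr (chr8:84846932-84847181, minus strand): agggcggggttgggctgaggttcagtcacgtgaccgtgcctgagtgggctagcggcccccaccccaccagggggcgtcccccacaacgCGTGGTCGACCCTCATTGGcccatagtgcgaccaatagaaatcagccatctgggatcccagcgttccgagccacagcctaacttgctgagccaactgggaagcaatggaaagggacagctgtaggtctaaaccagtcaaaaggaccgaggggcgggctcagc
Hspa5 (chr2:34771840-34772089, plus strand): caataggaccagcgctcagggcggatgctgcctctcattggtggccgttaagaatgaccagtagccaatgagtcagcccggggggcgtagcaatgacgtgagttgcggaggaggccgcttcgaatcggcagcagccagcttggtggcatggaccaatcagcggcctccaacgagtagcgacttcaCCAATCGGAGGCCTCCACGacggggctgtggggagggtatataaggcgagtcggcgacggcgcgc

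Genes of the integrated stress response, which follows phosphorylation of eIF2α and the translation of ATF4, lay above in 23 of 37 cases and below in 4, with a median log2 fold change of 0.51 and 3 members higher at an unadjusted p under 0.05. Replicate 1 was the highest treated library for 30 of the 37, and the mean log2 difference was 1.10 in replicate 1 against 0.26 and 0.33 in replicates 2 and 3. Chac1, a glutathione-degrading enzyme induced by ATF4, stood at 29.2, 4.14 and 3.31 CPM against 0.407 CPM (log2 fold change 4.91, SE 1.83; adjusted p = 0.767 in edgeR). Its replicate 1 value stood far above the other 2, which were still above the untreated one. Trib3, a pseudokinase of the same response, stood at 8.83, 0.788 and 0.561 CPM against 0.102 CPM, and Atf4 itself at 287, 122 and 114 CPM against 96.3 CPM. Pck2, the mitochondrial phosphoenolpyruvate carboxykinase, stood at 59.1, 34.1 and 33.1 CPM against 20.3 CPM (log2 fold change 1.05). The ATF4 target letters TGATGCAA were in 6 of 31 windows of the list (19.4%) and in 79 of all 9864 (0.801%). Of these 6 genes, 4 had all treated values above the untreated one, as did 38 of the 79. The median log2 fold change was 0.40 for members with the letters and 0.59 for those without. The part of replicate 1's depth and mitochondrial share in these values was not tested. Trib3 and Atf4 were chosen after their values were seen.

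**Figure D3:**
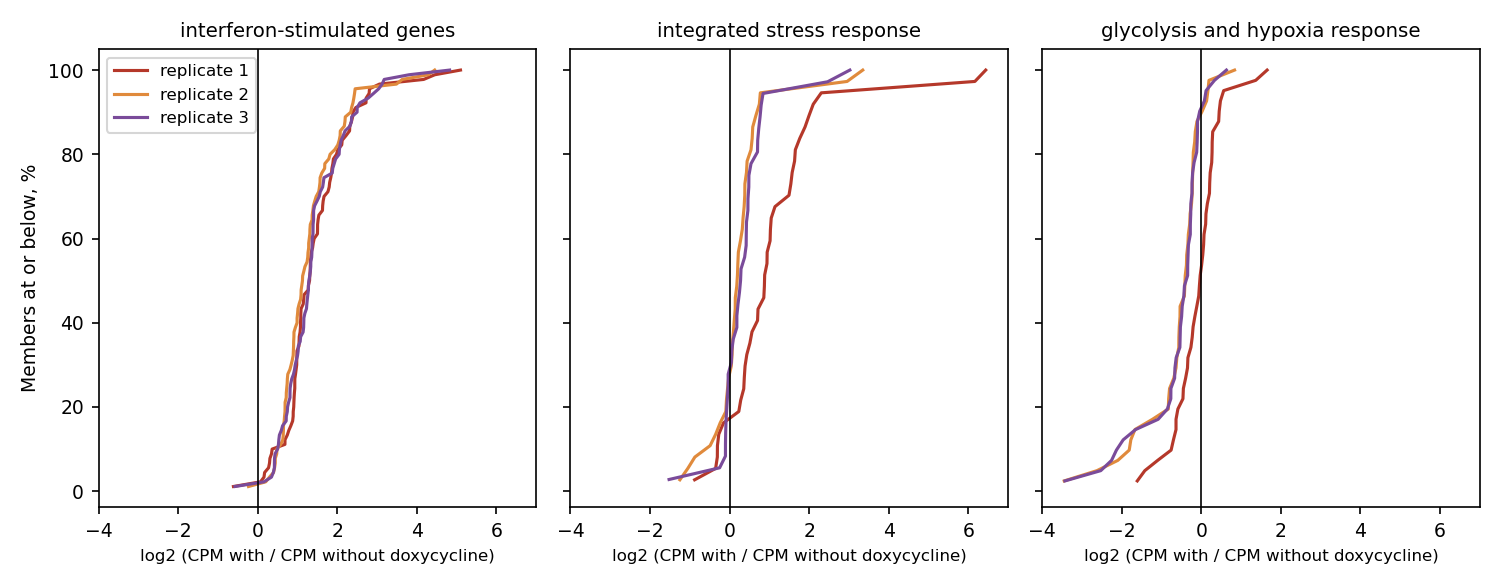
Cumulative share of members, in percent, against the log2 ratio of CPM with doxycycline to CPM without, for the interferon-stimulated, integrated stress response and glycolysis lists, with 1 curve for each treated shDis3l2 replicate; members at 0 in either library are left out. The 3 curves of the interferon-stimulated genes lie together (mean log2 differences of 1.26 to 1.40), while replicate 1 stands to the right of replicates 2 and 3 in the other lists (1.10 against 0.26 and 0.33 for the integrated stress response).

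Cell cycle genes divided by phase. Of 44 genes of S phase and DNA replication, 40 lay above the untreated library and 1 below, with a median log2 fold change of 0.36, none at 2-fold and 9 higher at an unadjusted p under 0.05. Ccne1, the cyclin that starts S phase, stood at 20.3, 23.4 and 22.9 CPM against 12.7 CPM (log2 fold change 0.80; adjusted p = 0.445 in edgeR). Mcm6, a subunit of the replicative helicase chosen after its values were seen, stood at 270.0, 193 and 181 CPM against 138 CPM. Of 40 genes of mitosis, 31 lay below and 3 above, with a median of −0.25, none at 2-fold and 4 lower at an unadjusted p under 0.05. Nusap1, a spindle protein, stood at 74.2, 80.1 and 75.8 CPM against 120.3 CPM (log2 fold change -0.65; adjusted p = 0.392 in edgeR), and Hmmr, which binds spindle microtubules, at 96.4, 99.1 and 102 CPM against 138 CPM (log2 fold change -0.48). Both sets of shifts were small beside those of the interferon-stimulated genes. All 40 mitosis genes were higher in the untreated shDis3l2 library than in the untreated shNS library, and 1 of the 44 S phase genes was. The share of all genes in that comparison was not counted. The part of the lone untreated library's own state in both shifts was not tested.

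Genes of glycolysis and the hypoxia response lay mostly at or below the untreated value. Of 43 tested, 21 lay below and 4 above, with 2 at least 2-fold below, 8 lower at an unadjusted p under 0.05 and a median log2 fold change of −0.21. Ankrd37, a target of hypoxia-inducible factor, stood at 4.8, 4.17 and 2.54 CPM against 14.6 CPM (log2 fold change -1.93). Selenbp1, a selenium-binding protein, stood at 3.27, 2.04 and 1.83 CPM against 8.74 CPM (log2 fold change -1.87), and Pdk1, a kinase that inhibits pyruvate dehydrogenase, at 87.2, 83.9 and 79.8 CPM against 135 CPM (log2 fold change -0.70). These 3 genes were below the untreated value in every treated library. The list's mean log2 difference was −0.07 in replicate 1 and −0.57 in replicates 2 and 3. Without replicate 1, 36 of the 43 lay below, where 6095 of all 15250 genes did.

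Sterol and lipid genes other than Angptl4 showed no common direction. Of 33 genes of fatty acid oxidation and lipid storage 14 lay above and 8 below, at a median of 0.07; Cd36, a fatty acid receptor also counted among macrophage genes, stood at 63.9, 32.5 and 74.3 CPM against 21.9 CPM, and Plin2, a lipid droplet coat protein, below it at 27.6, 27.4 and 35.5 CPM against 49.3 CPM. Of 35 genes of cholesterol and fatty acid synthesis 6 lay above and 1 below. Replicate 1 exceeded the untreated value in 33 of these 35, replicate 2 in 10 and replicate 3 in 12. The share of all genes above in a single library was not counted. Without replicate 1 the number below was 20 of 35, where 6095 of all 15250 genes lay below. Insig1, which retains the sterol sensor in the endoplasmic reticulum, stood at 110.1, 66.9 and 58.8 CPM against 32.2 CPM, above it in all 3. Among 13 targets of the sterol receptor LXR 2 lay above and 2 below; Abca1, the cholesterol exporter, stood at 14.5, 29.5 and 54.7 CPM against 14.9 CPM, with replicate 1 near the untreated value. Cd36 and Plin2 were chosen after their values were seen.

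Nuclear genes of the respiratory chain and the NRF2 targets lay mostly above, and the mitochondrially encoded RNAs did not. Of 53 nuclear-encoded subunits of the respiratory chain, 40 lay above and 0 below, at a median of 0.25, with mean log2 differences of 0.42, 0.17 and 0.15 in replicates 1, 2 and 3. Ndufa4 stood at 75.2, 76.4 and 68.5 CPM against 52.9 CPM (log2 fold change 0.47). Of 20 mitochondrial chaperones and proteases 13 lay above and 0 below, at a median of 0.16, among them Phb, which encodes prohibitin, at 135, 95.05 and 97.5 CPM against 77.2 CPM. Of 15 mitochondrially encoded RNAs 3 lay above and 1 below, with mean log2 differences of 0.48, 0.085 and −0.18 in replicates 1, 2 and 3; the member below was mt-Nd6, the subunit encoded on the light strand, at 65.2, 73.6 and 68.6 CPM against 111 CPM (log2 fold change -0.68). Of 26 NRF2 targets 19 lay above and 1 below (median 0.36); G6pdx, the first enzyme of the pentose phosphate pathway, stood at 307, 247 and 253 CPM against 161 CPM (log2 fold change 0.74).

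Genes of macrophage identity were spread on both sides, with 19 of 44 above and 6 below at a median of 0.21. Aif1, an actin-binding protein of macrophages, stood at 3, 3.06 and 3.55 CPM against 0.839 CPM (log2 fold change 1.93), and Fcgr4, a receptor for IgG, at 7.77, 5.6 and 7.8 CPM against 3.33 CPM (log2 fold change 1.08). The summed level of the macrophage markers was 12417 to 16095 CPM with doxycycline and 12079 CPM without, the highest in replicate 1. Of 49 lysosome and autophagy genes 24 lay above and 9 below, at a median of 0.18. Lipa, the acid lipase that frees cholesterol in lysosomes, stood at 709, 542 and 576 CPM against 235 CPM, at least 2-fold above in all 3 (log2 fold change 1.38; adjusted p = 0.301 in edgeR). RAW264.7 cells can form osteoclasts, and of 17 osteoclast genes 6 lay above and 4 below. Car2, the carbonic anhydrase of osteoclasts, stood at 80.8, 98.96 and 90.7 CPM against 396 CPM (log2 fold change -2.13, SE 0.16; adjusted p = 0.113 in edgeR), and the tyrosine kinase Src at 4.44, 3.39 and 4.82 CPM against 0.102 CPM (log2 fold change 5.33; adjusted p = 0.238 in edgeR). The untreated value of Src came from 4 counts, so the size of its fold is uncertain. Of 4 tested markers of other cells, 2 lay above, and the summed level of all 33 was 2.01 to 2.84 CPM with doxycycline and 1.70 CPM without.

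The RNA decay machinery around Dis3l2 had a median near the untreated level, with more genes below it than above. Of 71 exoribonuclease, exosome and uridylation genes 15 lay above and 28 below, against 29.4% and 29.5% of all genes, at a median of −0.04. The 1 member at least 2-fold above was Isg20, an interferon-stimulated exonuclease, at 7.11, 5.28 and 7 CPM against 1.8 CPM (log2 fold change 1.84). The paralogs Dis3 and Dis3l stood at 68.8, 88.5 and 95.4 and 32.1, 36.9 and 37.7 CPM against 88.4 and 43.9 CPM. The uridylating enzymes Tut4 and Tut7 stood at 65.5, 82.5 and 82.2 and 80.2, 132 and 139 CPM against 87.1 and 138 CPM. Lin28b, which recruits these enzymes to precursors of let-7, was at 0 in the untreated library and in replicates 1 and 2, and at 3.72 CPM in replicate 3. Of 23 polymerase III and other structured RNAs 2 lay above and 11 below, at a median of −0.26; Rnu1a1, a U1 small nuclear RNA gene with near-identical copies between which reads are divided by estimate, stood at 28.4, 17.4 and 28.96 CPM against 102 CPM (log2 fold change -2.03). Rn7sk, the scaffold of the P-TEFb inhibitor complex, stood at 12646, 11530.1 and 9374 CPM against 12574 CPM. Dis3, Dis3l, Tut4, Tut7, Lin28b and Rn7sk were chosen after their values were seen.

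The medians of the remaining lists lay near 0. Of 37 p53 targets 11 lay above and 11 below (median 0.03), near the shares of all genes (29.4% and 29.5%). Zmat3, an RNA-binding p53 target, stood at 64.1, 59.8 and 62.5 CPM against 88.4 CPM. Of 27 chromatin and Polycomb genes 9 lay above and 5 below (median −0.01). Of 35 genes of extracellular vesicle biogenesis 16 lay above and 8 below (median 0.14); Cd82, a tetraspanin, stood at 43.8, 44.9 and 43.7 CPM against 27.4 CPM, and Tsg101, a subunit of ESCRT-I, at 58.5, 57.02 and 55.6 CPM against 36.1 CPM.

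When genes were ordered by the distance between the untreated library and the nearest treated one, with a mean count of at least 50, 7 of the 15 farthest above were interferon-stimulated genes and 10 stood on any list. The order was made after the values were seen. Src (distance 4.45 on the log2 scale) and Angptl4 (4.28) led it, though Src had only 4 counts in the untreated library. Cxcl11, a chemokine of the Cxcl10 receptor, stood at 7.77, 4.41 and 3.22 CPM against 0.356 CPM. Impdh1, the enzyme that commits purines to guanine nucleotides, which stood on no list, was at 249.8, 182 and 186 CPM against 40.5 CPM (log2 fold change 2.35; adjusted p = 0.253 in edgeR), and complement C3 at 14.7, 23.8 and 30.9 CPM against 3.18 CPM. Tmem37 had 1 count untreated and 204 over the 3 treated libraries, a ratio of normalized counts of 71.8 with a 95% counting interval of 12.7 to 2848. Of the 15 farthest below, 0 were interferon-stimulated genes and 3 stood on any list. Cldn11, a claudin of tight junctions, stood at 5.81, 2.39 and 6.32 CPM against 42.3 CPM (log2 fold change -3.12), Bhlhe40, a transcriptional repressor, at 14.4, 14.2 and 14.8 CPM against 58.3 CPM (log2 fold change -2.01), and Slc5a3, the inositol transporter, at 98.2, 206 and 263 CPM against 806 CPM. For Bhlhe40 the treated values were almost equal (edgeR, adjusted p = 0.109). Of the 197 genes at least 2-fold above the untreated library 62 stood on any list, among them 44 interferon-stimulated genes, while of the 133 at least 2-fold below 5 stood on any list. The interferon-stimulated list held 90 of the 15250 genes tested, and the share of tested genes on any list was not counted.

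The shNS line shared the drug but not the hairpin, and its values are given here for some of the same genes. Of the 197 genes at least 2-fold above in shDis3l2, 70 lay above in all 3 shNS replicates and 37 below. Of the 133 at least 2-fold below, 36 lay below in all 3 and 40 above. Bhlhe40 in shNS stood at 24.1, 148 and 66.5 CPM against 236 CPM, and Car2 at 168, 2576 and 489 CPM against 2298 CPM. Src stood at 3.53, 0.322 and 10.1 CPM against 0.357 CPM there. In shNS, 3645 genes (23.9%) lay above their untreated library in all 3 replicates and 3475 (22.8%) below, 1.57% and 1.02% of genes by at least 2-fold, and 0 genes (0%) passed the same edgeR test within the line, with 231 higher and 93 lower at an unadjusted p under 0.05; no other tool was run there. Of the 90 interferon-stimulated genes, 53 lay above in shNS and 4 below, at a median of 0.67, and 52 lay above in both lines, against 7.55% of all genes. The shNS replicates were far apart, with mean log2 differences of 1.21, 0.23 and 0.71, and replicate 2 resembled the untreated shNS library (r = 0.984 over genes on the log scale, against 0.935 for replicates 1 and 3). Of the 90, 74 were already higher in untreated shDis3l2 than in untreated shNS. The share of all genes in that comparison was not counted, so the 74 cannot be set beside it. Siglec1 in shNS stood at 21.7, 4.65 and 18.9 CPM against 2.69 CPM (log2 fold change 2.49), a value near that in shDis3l2. Irf7 stood at 25.5, 4.39 and 7.74 CPM against 2.8 CPM (2.16 on the log2 scale) and was thus lower in every shNS library than in untreated shDis3l2. Cxcl10 stood at 0.378, 0.0585 and 0.259 CPM against 0.275 CPM, near absent in all 4 shNS libraries, and Irgm1 at 29.7, 31.5 and 29.8 CPM against 29.02 CPM (log2 fold change 0.06).

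**Figure D4:**
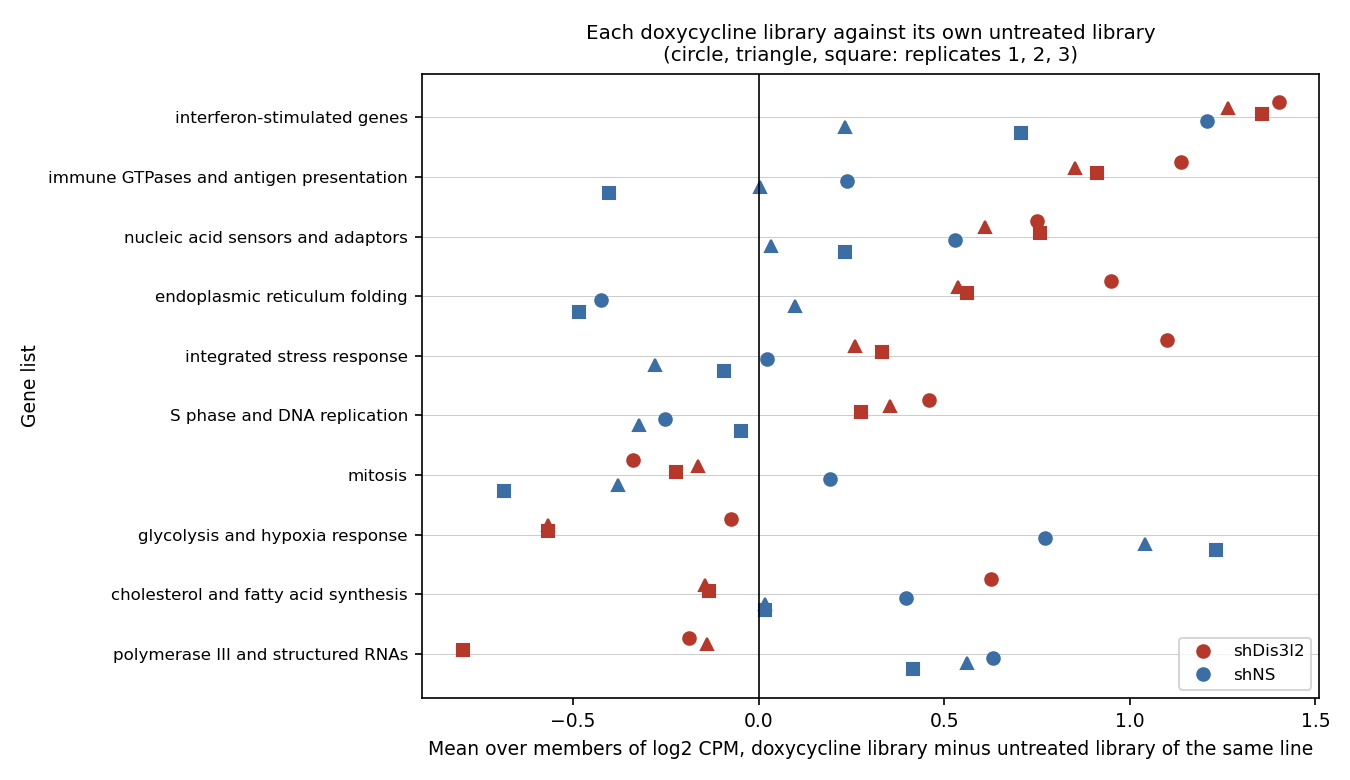
Mean over list members of the log2 CPM difference between each doxycycline library and the untreated library of its own line, for 10 lists, with 1 point for each replicate (blue for shNS, red for shDis3l2). The interferon-stimulated genes lie at 1.26 to 1.40 in shDis3l2 and at 0.23 to 1.21 in shNS; the glycolysis points are at or below −0.07 in shDis3l2 and at or above 0.77 in shNS.

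No gene passed the test of the difference between the lines' responses (edgeR interaction over all 8 libraries, 0 of 15250; 577 or 3.78% at an unadjusted p under 0.05). DESeq2 called 34 and limma-voom 0, and without replicate 2 of shNS with doxycycline edgeR called 124. Counts by direction are therefore descriptions. The class I peptide genes had a median of −0.21 (immunoproteasome and PA28) and −0.37 (transporter and tapasin) in shNS, where they were 0.97 and 0.91 in shDis3l2. Other families had shNS medians near or above those in shDis3l2: 1.37 against 1.40 for Oas and Oasl, 0.51 against 0.40 for class I heavy chains and B2m, and 3.19 against 1.34 for the Ifi200 family of DNA-binding proteins. The guanylate-binding proteins had a fitted median of 2.47 in shNS against 2.29 in shDis3l2, both with members at 0 in the untreated library. Mx2, an interferon-induced GTPase chosen after its values were seen, stood at 2.93, 1.02 and 0.604 CPM against 0.522 CPM in shNS and at 9.31, 15.9 and 18.4 CPM against 8.26 CPM in shDis3l2. The endoplasmic reticulum folding genes lay above in 3 and below in 7 of 25 in shNS (median −0.31), with Calr at 670.1, 881 and 596 CPM against 918 CPM. S phase genes lay above in 0 and below in 20 of 44 (median −0.20). Mitosis genes lay above in 0 and below in 6 of 40, and their median of −0.25 was the same as in shDis3l2. The integrated stress response genes lay above in 5 and below in 13 of 37 (median −0.12). Of these 37, 9 lay above in shDis3l2 and below in shNS, a combination found in 6.09% of all genes. Glycolysis genes lay above in 36 of 43 (median 0.75), and 19 of them lay above in shNS and below in shDis3l2, a combination found in 6.39% of all genes. Pdk1 stood at 157, 134 and 166 CPM against 69.5 CPM in shNS, and the difference of its log2 changes was -1.83 (adjusted p = 0.704).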

How the data were processed

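Total RNA-seq libraries, depleted of ribosomal RNA and stranded per the labels' protocols, were made from 4 shDis3l2 and 4 shNS samples. The authors deposited a single table of unnormalized expected counts for 55450 genes. Cutadapt, STAR 2.7 and RSEM are named in the submitters' processing notes, as are GRCm38 and mm10; how strand was treated in counting, and the annotation used, is not given in the sources used here. RSEM divides reads among genes of similar sequence, so values of paralogs, pseudogenes and small RNA copies are estimates. Columns were matched to samples by name, and 0 columns were unused. Of the genes, 22276 had a count, and GENCODE gave symbols and GRCm38 coordinates for all.

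Expected counts were rounded, which changed 4.68 to 5.24% of values. Library totals of 30341823 to 45557804 counts set the counting error, which the intervals and the floor of 3 counts cover alone. Filtering (edgeR filterByExpr, minimum count 10) and TMM scaling used all 8 libraries. Genes were tested with edgeR's quasi-likelihood test (R 4.3.3, edgeR 4.0.16), two-sided, with Benjamini-Hochberg adjustment over 15250 genes and a threshold of 0.05. It compared the 3 treated shDis3l2 libraries with the untreated one, with 2 residual degrees of freedom, assuming that the lone library varies like the treated ones. The interaction used all 8 libraries in 4 groups, with 4 residual degrees of freedom. Positions beyond the untreated value used log2 CPM with a prior count of 2. Gene lists were described by counts and medians, with no set test. Alternatives were other scalings and filters, DESeq2 1.42.0, limma-voom (limma 3.58.1), and leaving out each replicate. The scripts were tested on simulated data.

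The named genes are Dis3l2, Cxcl10, Angptl4, Siglec1 and Irf7, then the largest changes past the threshold (mean count at least 50), then up to 4 members of each list past the threshold or else its 1 or 2 members with the smallest p, and up to 10 genes with the smallest adjusted p for the difference between lines. A gene that the rule names is not reported here. The members and lists were chosen with earlier results of these data known.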

Additional observations from a re-analysis of the deposited data

Results flagged for a closer look

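Some genes named by the rule and reported here lay on opposite sides of their own untreated library in the 2 lines, with all 3 replicates of each line on 1 side. Of all genes tested, 6.09% were above in shDis3l2 and below in shNS, and 6.39% the reverse. Ankrd37, Pdk1, Tsg101, Tmem37, Selenbp1, Ephx1 and Prelid2 were named by the rule for their small p in the test of this same difference. Their positions and the size of their differences are therefore a product of that choice, and are no evidence beyond it. The value given is the log2 change with doxycycline in shDis3l2 minus that in shNS, and no adjusted p of edgeR's interaction test was below 0.05. It was −4.52 for Ankrd37, −1.83 for Pdk1, 1.58 for Tsg101 and 6.58 for Tmem37 (adjusted p = 0.704 for each; Tmem37 had 1 count in untreated shDis3l2, so its value has no firm size), and −3.34 for Selenbp1 (adjusted p = 0.711).

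Ephx1, an epoxide hydrolase, stood at 2.4, 2.19 and 2.33 CPM with doxycycline and 11.3 CPM without in shDis3l2, and at 23.1, 21.4 and 49.2 and 10.2 CPM in shNS. Its difference was −3.90, and that of Prelid2 was −2.12. The differences were 5.87 for Chac1 and 1.57 for Calr. Mitochondrial genes gave −1.07 for mt-Nd6, 0.62 for Phb, 0.57 for Clpp and 0.66 for Ndufa4. The macrophage genes Aif1 and Fcgr4 gave 2.53 and 1.54. Cdh5, an endothelial marker at under 1 CPM in every library, gave 3.48. The structured RNAs gave −3.36 for Rnu1a1 and −0.98 for Scarna6.

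For 3 lists the mean over members lay on opposite sides in all 3 replicates of the 2 lines, and the difference itself was not tested. The difference of the lines' mean log2 shifts was −1.42 for glycolysis and the hypoxia response, 0.57 for S phase and DNA replication, and −0.91 for polymerase III and structured RNAs.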

How the results depend on the processing

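The untreated side was 1 library, and genes with 3 counts or fewer in it, such as Gbp4, could be given no firm fold at this depth. Genes called higher and lower numbered 16 and 10 with no low-count filter, 174 and 50 in DESeq2, and 0 and 0 both in limma-voom (991 at an unadjusted p under 0.05) and in edgeR's fit on all 8 libraries (504). They were 1 and 0 under the other scalings, a filter of 1 CPM, unrounded counts, a 2-fold minimum and removal of mitochondrial and structured RNAs. Leaving out 1 treated library gave 124 to 513 higher and 41 to 389 lower. Angptl4 remained called except in limma-voom (4.44, adjusted p = 0.135) and in the fit on all 8 libraries (4.45, adjusted p = 1). Dis3l2 had an adjusted p of 0.00478 in DESeq2, and of 0.00717, 0.0726 and 0.0207 without replicates 1, 2 and 3, at log2 changes of −1.01, −1.09 and −1.16. The median of the interferon-stimulated genes was 1.16 to 1.23 over all alternatives. Rpl27-ps3, a ribosomal protein pseudogene, stood at 0.11 and turned to −0.081 without replicate 2 (−0.081 to 0.35 with each treated library left out in turn), and no value passed the test. The cause of these changes was not tested.

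The difference between the lines was called for 2 genes with no low-count filter, 34 in DESeq2, and 0 to 124 when 1 treated library was left out, the highest without replicate 2 of shNS. With the replicate number as a block it was called for 0 genes (504 at an unadjusted p under 0.05, smallest adjusted p = 0.344). Deviations of same-numbered libraries from their group means correlated at −0.122, 0.0208 and −0.00601. The shNS replicates were far apart, so these values cannot show whether same-numbered libraries were handled together, and the labels give only the number. No paired analysis was possible because the untreated side within the line is 1 library without a replicate number. Genes at least 2-fold above and below numbered 252 to 302 and 211 to 248 when 1 treated library was left out.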

Other observations

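Gene types differed in their position against the untreated library, a pattern seen after the values were known and given as counts without a test. Of 11813 protein-coding genes tested, 34.0% had all 3 treated shDis3l2 values above the untreated one and 26.9% below. Of 456 long intergenic noncoding RNA genes, 15.8% lay above and 44.7% below, and of 371 antisense genes 15.9% and 39.9%. Of 145 sense-intronic genes, 5.52% lay above and 44.1% below. In shNS the protein-coding shares were 24.3% above and 22.8% below, and the long intergenic ones 23.9% and 21.3%. The antisense shares there were 28.0% and 22.9%, while sense-intronic genes lay mostly below there too, at 8.97% above and 29.0% below. The genes to be experimentally checked, of which 1055 were tested, lay above in 7.87% and below in 44.5% in shDis3l2, and in 12.8% and 26.8% in shNS. The median of the mean count was 1037.5 for protein-coding genes and 20.75 to 47.75 for these other 4 types, and the part of count level in the shares was not tested. Small nucleolar RNA genes, of which 40 were tested, lay above in 5.0% and below in 35.0% in shDis3l2, and above in 75.0% and below in 2.5% in shNS. Small nuclear RNA genes, of which 31 were tested, lay above in 3.23% and below in 61.3% in shDis3l2, and above in 58.1% and below in 12.9% in shNS. Many of these small RNA genes share sequence with copies, so their counts are estimates and are not independent of each other.

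Gm23444 and Gm23472, near-identical small RNA genes with the same values, stood at 6.86, 10.1 and 4.91 CPM with doxycycline and 8.69 CPM without in shDis3l2, and at 21.1, 19.3 and 16.9 CPM with doxycycline and 0.384 CPM without in shNS. Their treated values lay on both sides of the untreated one in shDis3l2 and all above it in shNS, and the difference of the log2 changes was −5.88 (edgeR interaction, adjusted p = 0.243).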
